A study of Mus musculus with 9 samples.

Results

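The genes described here are the Wnt ligands, their Frizzled receptors and the secreted inhibitors and agonists that act on them, in mouse tissue after talc was put into the chest. Members were taken by name: each row of the authors' table called Wnt, Fzd, Sfrp, Dkk or Rspo, followed by a number and, where present, the letter a or b. That gave 41 of 25652 genes: 19 Wnt, 10 Fzd, 4 Sfrp, 4 Dkk and 4 Rspo. All 9 libraries came from wild-type (WT) mice that had received 200 µL of talc in saline (2.0 g/kg) on the left side of the chest; the days are 0 (30 minutes after talc), 3 and 9, with 3 libraries per day. No strain or age is given in the sources used. The labels name the tissue as adhesions joining lung and chest wall, while the protocol speaks of left lung parenchyma connected to the chest. Every group had received talc, so day 0 is the reference and not an untreated control.

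Wnt proteins are lipid-modified secreted ligands. They bind Frizzled receptors, and with the co-receptors Lrp5 and Lrp6 they stabilise β-catenin, which then acts with TCF/LEF factors on target genes. With other partners, such as the receptor kinase Ror2 for Wnt5a, they act without β-catenin on cell polarity and movement. Secreted Frizzled-related proteins (Sfrp) carry a Frizzled-like domain and can bind Wnts outside the cell, Dickkopf proteins (Dkk) mostly block Lrp5 and Lrp6, and R-spondins (Rspo) strengthen the signal through Lgr receptors. In lung, these genes are known for roles in branching, alveolar repair and scarring.

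Of the 41 members, 39 had at least 1 read, and 30 were expressed, meaning at least 1 CPM (counts per 1000000 reads of the TMM-scaled library total) in all 3 libraries of at least 1 day. All 10 Frizzled genes and all 4 Sfrp genes were expressed, against 12 of 19 Wnt genes, 2 of 4 Dkk genes and 2 of 4 Rspo genes. By day, 29 members reached this level at day 0, 24 at day 3 and 28 at day 9. The Wnt ligands made most of that dip, with 11, 7 and 10 expressed at the respective days. For the ligands this dip in the count rested on 1 or 2 day 3 libraries per gene. Wnt3a, Wnt7a, Wnt10b and Wnt16 dropped out at day 3 but held 4.52, 3.29, 5.34 and 2.11 CPM in replicate 3. All of them were under 1 CPM in day 3 replicate 4, and Wnt3a and Wnt7a also in replicate 1. The 8 members with too few reads to test were Dkk4 and Wnt8a (no read), Wnt3 and Wnt8b (1 read each over all libraries), Wnt1 (10), Wnt9b (33), Wnt10a (36) and Rspo2 (53). The other 33 were tested.

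By day 3 the ligands Wnt5a, Wnt5b and Wnt16 had fallen 2.33-, 1.84- and 4.19-fold. By day 9 Wnt5a had come back to or above its first level, the secreted inhibitors Sfrp1, Sfrp2 and Sfrp4 had risen 7.42-, 5.49- and 5.25-fold over day 0, and the receptor Fzd2 1.98-fold, while the receptor Fzd4 had fallen 2.14-fold. The edgeR quasi-likelihood tests, two-sided, compared the days, with p-values adjusted by Benjamini-Hochberg over all 14794 tested genes, and a gene passed below 0.05. At day 3 against day 0, 3 of 33 members were lower (Wnt5a, Wnt5b and Wnt16) and 0 were higher, where 3.29% of all genes passed as lower, 12.9% as higher and 16.2% in either direction. At an unadjusted p below 0.05, 1 member was higher and 7 were lower; limma-voom passed 0 higher and 5 lower, and DESeq2 passed 1 higher and 6 lower. Between days 0 and 9, 5 members were higher at day 9 (Wnt5a, Fzd2, Sfrp1, Sfrp2 and Sfrp4) and 1 was lower (Fzd4). Those 5 are 15.2% of the tested members, the same share as the 15.2% of all genes that passed as higher; 5.54% passed as lower and 20.7% in either direction. Between days 3 and 9, 5 members were higher at day 9 (Wnt5a, Fzd1, Fzd2, Dkk2 and Dkk3), or 15.2%, where 5.19% of all genes passed as higher. At that comparison 8.85% of all genes passed in either direction. At an adjusted p below 0.05 none of the members was lower there by edgeR, limma-voom or DESeq2; at an unadjusted p below 0.05, 0 were lower by edgeR and by limma-voom and 1 by DESeq2. Of all genes, 3.66% passed as lower. Over any day, 10 members passed, or 30.3%, against 25.7% of all genes.

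These counts moved with single libraries. At day 3 against day 0, 1 member passed without day 0 replicate 1 or replicate 2, 5 without day 3 replicate 1 and 12 without day 3 replicate 3. Between days 0 and 9, 10 passed without day 3 replicate 3. At day 9 against day 3, 16 passed without day 3 replicate 3, 3 without day 0 replicate 1, day 9 replicate 1 or day 9 replicate 3, and 2 without day 0 replicate 2 or day 9 replicate 4. Over any day, 5 passed without day 0 replicate 1 or 2, 6 without day 9 replicate 4 and 17 without day 3 replicate 3.

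The family medians differed in sign. The median log2 fold change of the 13 tested Wnt ligands was -0.88 at day 3 and -0.62 at day 9, both against day 0. That of the 4 Sfrp genes was 0.82 and 2.42, that of the 3 tested Dkk genes -0.58 and 0.71, and that of the 3 tested Rspo genes 0.05 and 0.76. The 10 Frizzled genes had medians near 0, at -0.29 and 0.00. Over all 14794 genes the medians were 0.05 and 0.01. The Wnt ligands ranged widely, from -2.07 to 0.50 at day 3 and from -1.85 to 1.12 at day 9. Of them 3 passed as lower at day 3, and at day 9 1 passed as higher and 0 as lower. No Dkk or Rspo gene passed against day 0 by edgeR. Ligands such as Wnt3a and Wnt7a differed strongly between the day 3 libraries, as given below.

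**Figure D1:**
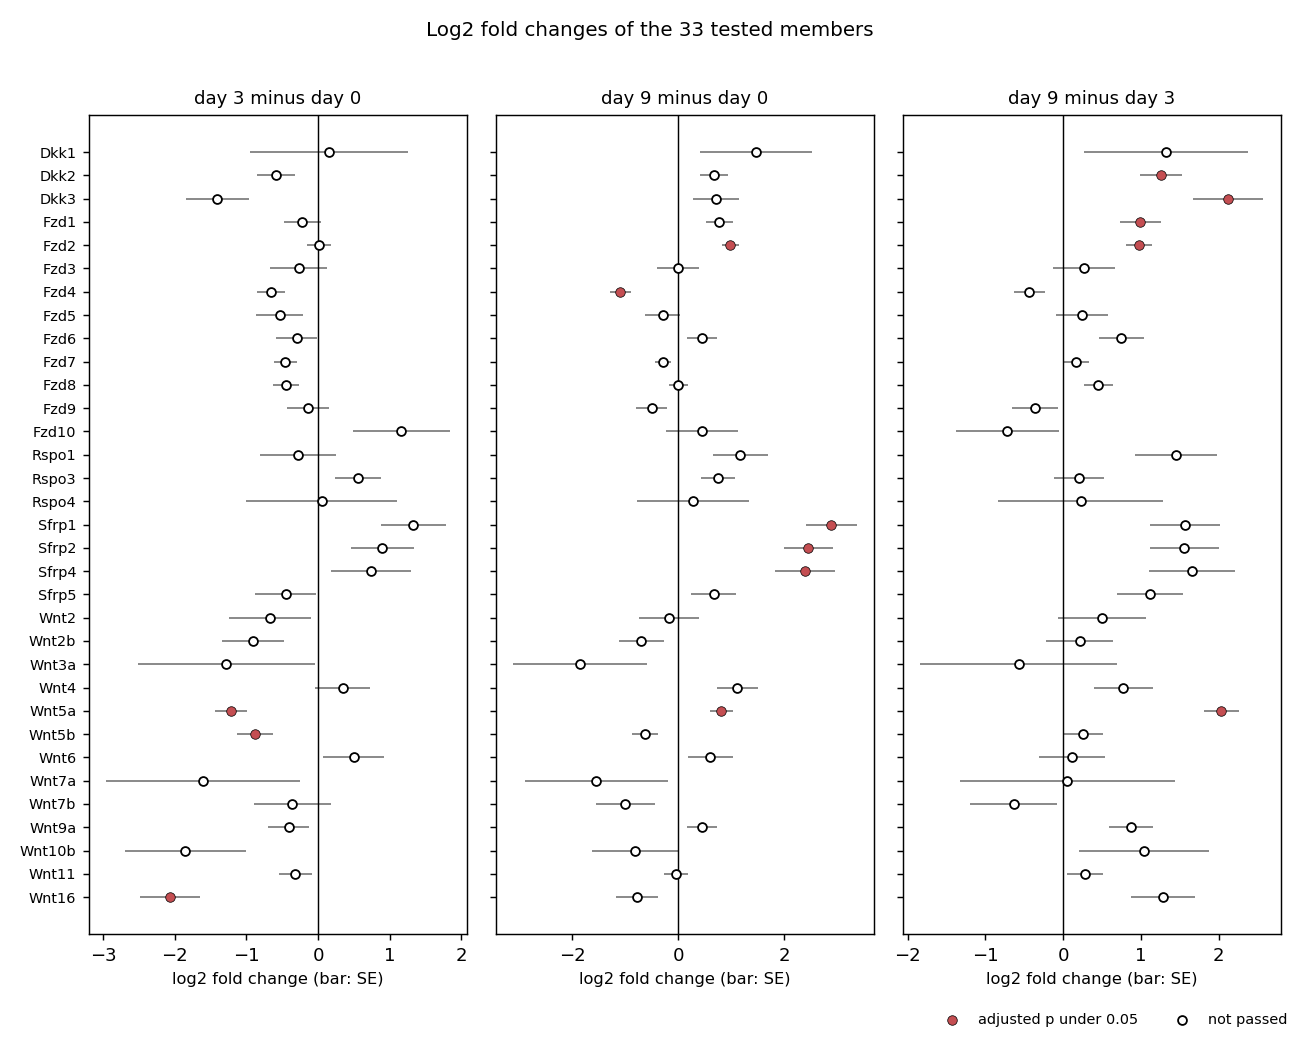
Log2 fold change (x axis) of each of the 33 tested members (y axis) for the 3 day comparisons, with the SE as a bar. Filled points passed an adjusted p of 0.05 in edgeR; Sfrp1, Sfrp2 and Sfrp4 lie farthest to the right at day 9 minus day 0, and Wnt16 farthest to the left among the passing genes at day 3 minus day 0.

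The 3 starts below show the region just before an Sfrp that rose, the receptor that fell by day 9 and a ligand that fell by day 3. They are the 250 bases before the start of Sfrp2 (chr3:83766071-83766320, plus strand), Fzd4 (chr7:89404116-89404365, plus strand) and Wnt16 (chr6:22287977-22288226, plus strand), from RefSeq on GRCm38.p6, 5′ to 3′. Capitals mark matches to the motifs searched.
Sfrp2: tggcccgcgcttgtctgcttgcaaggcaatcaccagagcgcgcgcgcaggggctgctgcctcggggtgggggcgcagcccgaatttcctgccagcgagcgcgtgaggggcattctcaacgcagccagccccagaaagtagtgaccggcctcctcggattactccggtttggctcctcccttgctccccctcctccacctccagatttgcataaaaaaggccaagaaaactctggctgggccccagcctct
Fzd4: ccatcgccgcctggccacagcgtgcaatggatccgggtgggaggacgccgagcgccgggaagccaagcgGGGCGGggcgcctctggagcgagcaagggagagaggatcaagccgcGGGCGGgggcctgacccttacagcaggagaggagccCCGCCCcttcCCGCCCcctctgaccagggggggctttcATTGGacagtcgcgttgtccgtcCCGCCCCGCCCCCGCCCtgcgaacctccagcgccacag
Wnt16: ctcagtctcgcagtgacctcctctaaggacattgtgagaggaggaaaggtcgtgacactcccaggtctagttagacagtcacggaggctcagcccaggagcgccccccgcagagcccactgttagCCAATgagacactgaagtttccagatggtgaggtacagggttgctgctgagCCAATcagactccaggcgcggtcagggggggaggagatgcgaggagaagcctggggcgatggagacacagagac
The motifs were the TATA box (TATAAA), the CCAAT box (CCAAT), the GC box (GGGCGG), the AP-1 motif (TGANTCA) and the TCF/LEF motif (CTTTGAT), on both strands, with overlapping matches counted. Fzd4 held 7 GC boxes and 1 CCAAT box, Wnt16 held 2 CCAAT boxes, and Sfrp2 held no match to these letters. Of the 32851 RefSeq promoters, 32.7% held the GC box, 33.8% the CCAAT box, 12.4% the TATA box, 6.75% the AP-1 motif and 3.21% the TCF/LEF motif. The table held 30 promoters for 27 of the members, of which 21 held the GC box, 10 the CCAAT box, 4 the TATA box, 1 the AP-1 motif and 2 the TCF/LEF motif. A match describes the letters in this window only.

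Values below are in CPM per library, in the order of replicates 1, 2 and 3 at day 0 and replicates 1, 3 and 4 at days 3 and 9. Among the ligands, Wnt5a (chromosome 14), a ligand best known for signalling without β-catenin, fell and then rose. Wnt5a stood at 23.5, 17.3 and 18.9 CPM on day 0, 8.72, 8.16 and 8.75 on day 3, and 23.4, 42.4 and 39.0 on day 9. All day 3 libraries lay below every library of the other days and close to each other, whereas days 0 and 9 overlapped, since day 9 replicate 1 lay just under day 0 replicate 1. The level of Wnt5a at day 3 was 2.33-fold below day 0 (log2 fold change -1.22, SE 0.225, edgeR adjusted p = 0.00997), and at day 9 it was 4.09-fold above day 3 (2.03, SE 0.228, adjusted p = 0.00456). The rise over day 3 passed in all 17 alternative analyses, with adjusted p between 2.09e-13 and 0.0494. The 1.76-fold difference between days 9 and 0 (0.81, SE 0.218, adjusted p = 0.031) was less stable. It did not pass without day 0 replicate 2 (adjusted p = 0.112), day 0 replicate 3 (0.0966), day 9 replicate 3 (0.108) or day 9 replicate 4 (0.105).

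Wnt5b (chromosome 6), a close relative of Wnt5a, also fell by day 3 but did not rise again. Its levels were 10.9, 11.7 and 7.48 CPM on day 0, 5.98, 4.46 and 5.93 on day 3, and 5.07, 8.05 and 6.41 on day 9. Every day 3 library lay below every day 0 library, and day 9 overlapped with both. The fall by day 3 was 1.84-fold (log2 fold change -0.88, SE 0.25, edgeR adjusted p = 0.0463), close to the threshold. It no longer passed without day 0 replicate 1 (adjusted p = 0.141) or 2 (0.148), day 3 replicate 1 (0.0709) or 4 (0.0723), or day 9 replicate 3 (0.0554) or 4 (0.0687).

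Wnt16 (chromosome 6), a ligand known for its part in cortical bone, had the lowest day 3 values of the 3 ligands that fell. It stood at 7.49, 7.93 and 4.16 CPM on day 0, 1.74, 2.11 and 0.76 on day 3, and 3.98, 2.92 and 4.51 on day 9. Day 3 did not overlap with either other day. The fall by day 3 was 4.19-fold (log2 fold change -2.07, SE 0.416, edgeR adjusted p = 0.0142). It did not pass without day 0 replicate 1 (adjusted p = 0.059) or 2 (0.0584). At day 9 the level was 1.29 higher than at day 3 on the log2 scale, which did not pass (adjusted p = 0.089).

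The cellular makeup of the libraries moved with the days, and in a bulk sample fewer cells of a type and less RNA per cell cannot be told apart. Summed over 7 alveolar type 2 markers, day 0 libraries held 4735 to 5191 CPM, day 3 replicate 3 held 5618, and day 3 replicates 1 and 4 held 133 and 80.9. Wnt5a lay between 8.16 and 8.75 CPM in these 3 day 3 libraries, and its fall passed without each library in turn. That fall did not pass in edgeR with the replicate number as a block (adjusted p = 0.094). Skeletal muscle markers were high in every library, at 40770 to 93949 CPM over 7 genes, and cartilage and bone markers ran from 70.5 to 1974 CPM over 10 genes. With the mean of the alveolar type 2 markers as a covariate, the log2 fold change of Wnt5a at day 3 was -1.11, against -1.22 without it, and did not pass (adjusted p = 0.0642, range over alternatives 1.49e-05 to 0.094). That of Wnt16 was -1.64, against -2.07 (adjusted p = 0.0736, range 2.57e-05 to 0.162), and that of Wnt5b was -1.02, against -0.88 (adjusted p = 0.104, range 0.00731 to 0.268). Neither of these passed. This covariate follows 1 marker list only. Mean sums of macrophage markers were 1385 CPM on day 0 and 2828 on day 3, and those of endothelial markers 1555 and 884. The part of cell makeup in the falls of these ligands was not tested.

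Among the receptors, Fzd2 (chromosome 11), which can bind Wnt5a, rose by day 9. Fzd2 stood at 15.3, 14.3 and 11.1 CPM on day 0, 14.0, 11.6 and 15.6 on day 3, and 23.4, 28.4 and 28.9 on day 9. All day 9 libraries lay above all others, and days 0 and 3 overlapped. Day 9 was 1.98-fold above day 0 (log2 fold change 0.99, SE 0.167, edgeR adjusted p = 0.00419) and 1.96-fold above day 3 (0.97, SE 0.167, adjusted p = 0.0144), and both differences passed without each library in turn. Neither passed in edgeR with the replicate number as a block (adjusted p = 0.0619 over day 0 and 0.0686 over day 3).

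Fzd1 (chromosome 5), a near relative of Fzd2 and Fzd7, was also highest at day 9. Its levels were 31.7, 33.1 and 35.6 CPM on day 0, 27.5, 40.7 and 18.0 on day 3, and 48.7, 66.4 and 56.7 on day 9. Day 9 lay above both other days in every library, while day 3 was scattered around day 0. The difference between days 9 and 3 was 1.99-fold (log2 fold change 0.99, SE 0.259, edgeR adjusted p = 0.0496), at the threshold, and that between days 9 and 0 did not pass (0.78, adjusted p = 0.0661). The first passed without day 3 replicate 3 (adjusted p = 0.00383) but without none of the other 8 libraries (adjusted p from 0.0615 to 0.143).

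Fzd4 (chromosome 7), the receptor for Norrin in blood vessel growth as well as for Wnts, was the only member lower at day 9 than at day 0 by the test. Fzd4 stood at 232, 190.0 and 218 CPM on day 0, 165, 146 and 94.5 on day 3, and 91.7, 99.7 and 108 on day 9. Both later days lay below day 0 in every library and overlapped with each other. Day 9 was 2.14-fold lower (log2 fold change -1.10, SE 0.198, edgeR adjusted p = 0.00577), which passed without each library in turn, while the difference at day 3 did not pass (-0.66, adjusted p = 0.0533). With the replicate number as a block in edgeR, the difference at day 9 did not pass (adjusted p = 0.0766). Markers of endothelium moved alongside: their sum over 6 genes ran from 1472 to 1635 CPM on day 0, from 539 to 1365 on day 3 and from 563 to 913 on day 9, with 2 of 6 genes lower at day 9. Their part in the fall of Fzd4 was not tested. The other 7 Frizzled genes passed in no comparison by edgeR or limma-voom, while DESeq2 passed Fzd7 as lower at day 3 than at day 0. Fzd7, the second highest of the receptors per length at day 0, went from 58.5 ± 7.1 CPM (SD, n = 3) to 42.6 ± 9.1 and 47.9 ± 1.19.

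Of the secreted Frizzled-related proteins 3 of 4 rose by day 9, with the largest folds over day 0 of the members that passed. Sfrp1 (chromosome 8) stood at 18.95, 25.2 and 19.5 CPM on day 0, 39.8, 96.3 and 23.2 on day 3, and 119, 171 and 183 on day 9. Day 9 lay above every other library, and day 3 ran from just inside the range of day 0 to far above it. Day 9 was 7.42-fold above day 0 (log2 fold change 2.89, SE 0.476, edgeR adjusted p = 0.00367), and this passed in all 17 alternative analyses (adjusted p from 3.25e-09 to 0.0402). The differences at day 3 against day 0 (1.33, adjusted p = 0.0799) and at day 9 against day 3 (1.57, adjusted p = 0.0665) did not pass. Without day 3 replicate 3, the highest day 3 library, the latter passed at 2.38 on the log2 scale (adjusted p = 0.00238).

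Sfrp2 (chromosome 3), a product of fibroblasts in many tissues, stood at 22.8, 32.1 and 12.77 CPM on day 0, 70.5, 22.3 and 33.3 on day 3, and 129, 103 and 139.7 on day 9. Day 9 again lay above every other library, and day 3 overlapped with day 0. Day 9 was 5.49-fold above day 0 (log2 fold change 2.46, SE 0.459, edgeR adjusted p = 0.00672), passing in all 17 alternative analyses (adjusted p from 5.26e-07 to 0.0347). The highest day 3 library was replicate 1 here and replicate 3 for Sfrp1.

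Sfrp4 (chromosome 13) followed the same order at lower levels, with 14.98, 10.1 and 6.69 CPM on day 0, 33.7, 13.5 and 5.63 on day 3, and 59.4, 47.4 and 60.1 on day 9. Day 9 did not overlap with the other days, while day 3 reached below and above day 0. Day 9 was 5.25-fold above day 0 (log2 fold change 2.39, SE 0.57, edgeR adjusted p = 0.0195). This did not pass without day 0 replicate 2 (adjusted p = 0.0744) or 3 (0.0723), or day 9 replicate 1 (0.0522) or 4 (0.0584). The last gene of the family, Sfrp5, did not pass, with 12.1, 12.6 and 11.03 CPM on day 0, 11.4, 7.87 and 6.84 on day 3, and 31.3, 7.997 and 17.7 on day 9. Its day 9 libraries reached from inside the day 3 range to well above day 0.

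Fibroblast markers rose together with these 3 Sfrp genes. Their sum over 10 genes ran from 7290 to 10728 CPM on day 0, from 7156 to 17111 on day 3 and from 28628 to 31135 on day 9, with 7 of 10 genes higher at day 9 than at day 0. As for Sfrp2 and Sfrp4, the highest day 3 library was replicate 1. The sum over 9 macrophage markers ran from 1337 to 1409 CPM on day 0 and from 5448 to 10047 on day 9, with 9 of 9 higher. The part of either cell type in the rise of the Sfrp genes was not tested.

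**Figure D2:**
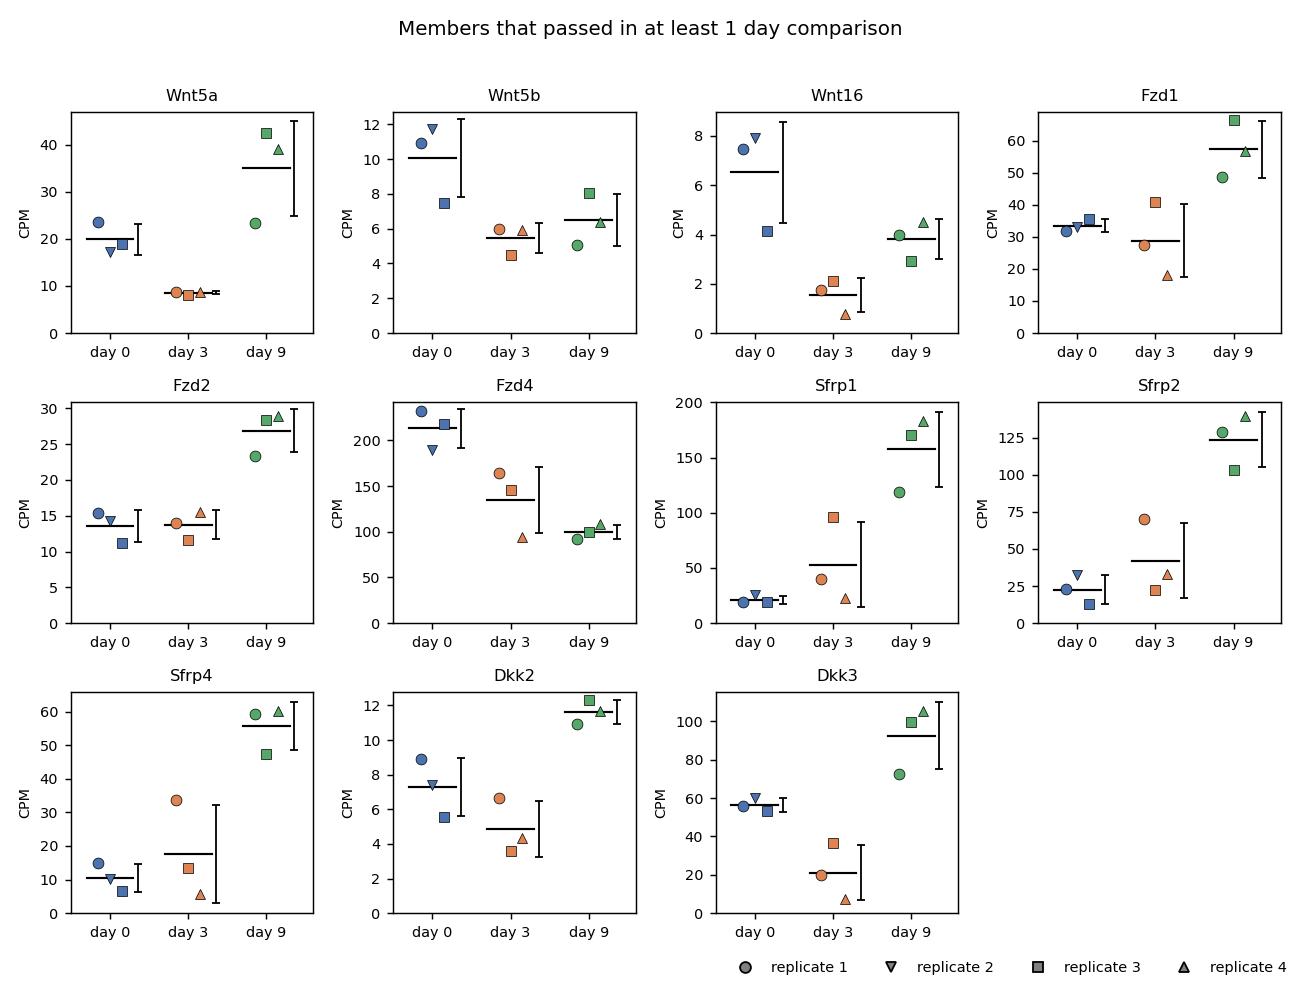
CPM (y axis, linear from 0) of the 11 members that passed in at least 1 day comparison, by day (x axis); points are libraries, lines the means and bars the SD of 3 libraries. Wnt5a dips at day 3 to about 8.5 CPM in each library, the 3 Sfrp genes and Fzd2 lie highest at day 9, and Fzd4 lies highest at day 0.

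Dkk3 and Dkk2 were higher at day 9 than at day 3. Dkk3 (chromosome 7), the divergent member that does not act on Lrp5 and Lrp6 in the way of its relatives, stood at 55.7, 60.3 and 53.1 CPM on day 0, 19.7, 36.4 and 7.605 on day 3, and 72.5, 99.5 and 105 on day 9. The 3 days did not overlap at all. Day 9 was 4.34-fold above day 3 (log2 fold change 2.12, SE 0.454, edgeR adjusted p = 0.0261), while the fall at day 3 (-1.40, adjusted p = 0.0646) and the difference between days 9 and 0 (0.71, adjusted p = 0.273) did not pass. The rise over day 3 did not pass without day 0 replicate 1 (adjusted p = 0.0515) or 2 (0.0525), day 3 replicate 1 (0.0689), or day 9 replicate 3 (0.0711) or 4 (0.0825).

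Dkk2 (chromosome 3), an Lrp5 and Lrp6 ligand, stood at 8.89, 7.43 and 5.57 CPM on day 0, 6.66, 3.58 and 4.33 on day 3, and 10.9, 12.3 and 11.7 on day 9. Day 9 lay above both other days, which overlapped. Day 9 was 2.39-fold above day 3 (log2 fold change 1.26, SE 0.264, edgeR adjusted p = 0.0246). This did not pass without day 0 replicate 2 (adjusted p = 0.0506), day 3 replicate 4 (0.0615), or day 9 replicate 1 (0.0524), 3 (0.0751) or 4 (0.0694). Dkk1, the best-known inhibitor of the family, was near the limit of detection, at 0 to 1.59 CPM over the 9 libraries.

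No R-spondin passed by edgeR or limma-voom, while DESeq2 passed Rspo1 as higher at day 9 than at day 3. Rspo1 had the highest level of them, at 2.52, 4.06 and 6.47 CPM on day 0, 3.36, 5.34 and 1.98 on day 3, and 5.07, 15.7 and 8.52 on day 9. Its day 9 libraries overlapped with those of both other days. Rspo3 lay between 1.52 and 3.64 CPM in all libraries, and Rspo4 did not exceed 1.18 CPM.

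Set per kilobase of exon, the order of the members changed with time. Such values compare levels between genes only if reads come from the whole transcript, which was not tested. At day 0 Fzd4 led with 31.8 ± 3.19 CPM per kb (SD, n = 3), ahead of Dkk3 with 16.8 ± 1.09, Fzd7 with 12.9 ± 1.57 and Sfrp2 with 10.5 ± 4.50; the last 2 do not differ beyond their spread. At day 9 Sfrp2 led with 57.5 ± 8.72, followed by Sfrp1 with 36.02 ± 7.79, Dkk3 with 27.5 ± 5.23 and Fzd4 with 14.9 ± 1.22, with the ranges of Sfrp1 and Dkk3 touching within 1 SD. Wnt5a, at 2.54, 1.09 and 4.47 CPM per kb at days 0, 3 and 9, ranked 15, 21 and 14 among the 41 members. Wnt4 was the highest ligand per kb at each day, at 4.71 ± 0.375, 5.98 ± 3.09 and 10.2 ± 4.18 CPM per kb. Mean CPM not scaled by length gave another order in places. At day 0 Wnt5a had 19.9 and Wnt4 19.8 CPM, and at day 9 Sfrp1 had 157 and Sfrp2 124 CPM. The rise of Wnt4 at day 9 did not pass (log2 fold change 1.12, edgeR adjusted p = 0.0729).

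**Figure D3:**
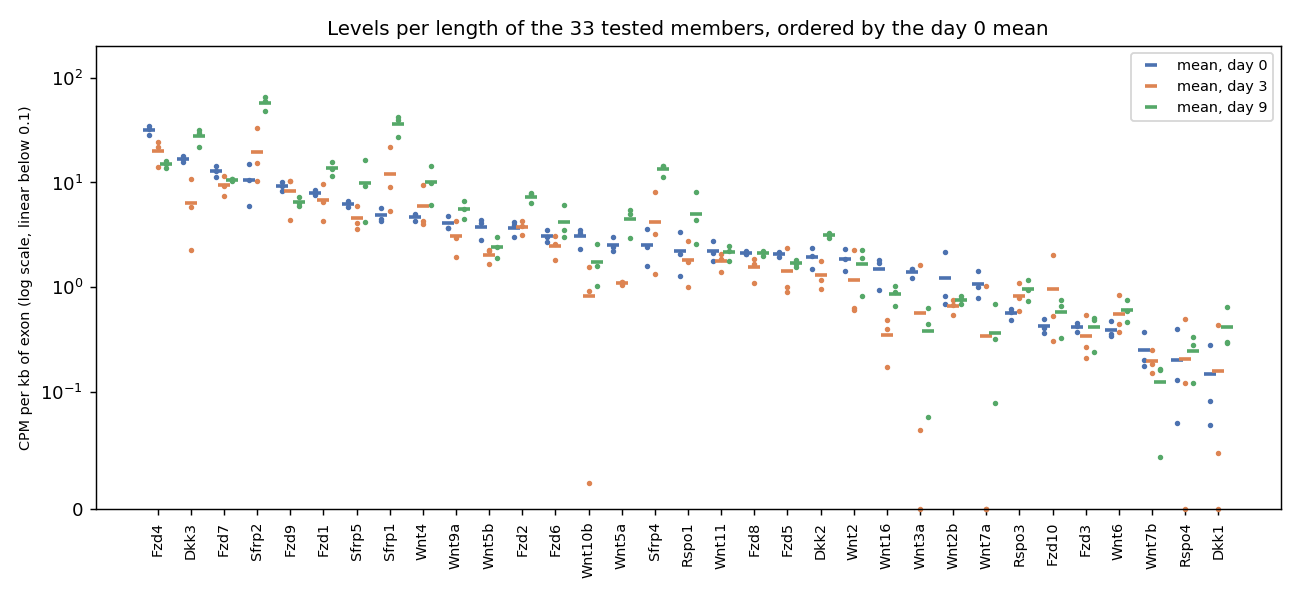
Level per length (y axis, CPM per kilobase of exon, log scale, linear below 0.1) of the 33 tested members, ordered by the day 0 mean; dots are libraries and dashes the day means. Fzd4 leads at day 0 with 31.8 CPM per kb, and Sfrp2 at day 9 with 57.5.

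Some members were low in 2 of the day 3 libraries and not in the other. Wnt7a and Wnt3a, named here after their values were seen, show this in full. Wnt7a stood at 4.56, 2.50 and 3.21 CPM on day 0, 0, 3.29 and 0 on day 3, and 0.29, 1.03 and 2.18 on day 9. Wnt3a stood at 4.09, 4.18 and 3.38 CPM on day 0, 0.19, 4.52 and 0 on day 3, and 0.22, 1.23 and 1.75 on day 9. For both genes every day 9 library lay below every day 0 library. Neither difference passed (edgeR adjusted p = 0.437 for Wnt7a and 0.325 for Wnt3a). Day 3 replicate 3 held both at day 0 levels, while replicates 1 and 4 held almost none. Over those 2 libraries Wnt7a was at least 33.3-fold below the day 0 mean, counting 0 reads as a floor of 3 over the group. They were picked because they held no Wnt7a read, so this fold is not a result for day 3. Over all 3 day 3 libraries Wnt7a was 3.04-fold lower than at day 0 (edgeR adjusted p = 0.434) and Wnt3a 2.43-fold lower (0.493). Neither of these falls passed. The summed alveolar type 2 markers have the same order, with 5618 CPM in replicate 3 against 133 and 80.9 in replicates 1 and 4, and 574 CPM in day 9 replicate 1 against 2378 and 2627 in replicates 3 and 4. Other lung epithelial lists split likewise at day 3. Alveolar type 1 markers held 1166 CPM in replicate 3 against 108 and 109, and airway markers 7331 against 159 and 114. Both lists were also lowest in replicate 1 among the day 9 libraries. The part of lung epithelium in these values was not tested.

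Without day 3 replicate 3, 12 of 34 tested members were lower at day 3 than at day 0 and 0 higher, against 17.5% of all genes lower, 17.1% higher and 34.6% in either direction. The 12 were Wnt2, Wnt3a, Wnt5a, Wnt5b, Wnt7a, Wnt10b, Wnt16, Fzd1, Fzd4, Fzd5, Fzd8 and Dkk3. At day 9 against day 3, 16 then passed, 15 higher and 1 lower, against 16.4% of all genes higher, 11% lower and 27.4% in either direction. Between days 0 and 9, 8 were higher and 2 lower, against 18.7% and 14.8%, or 33.5% in either direction. With all libraries the respective totals were 3, 5 and 6.

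**Figure D4:**
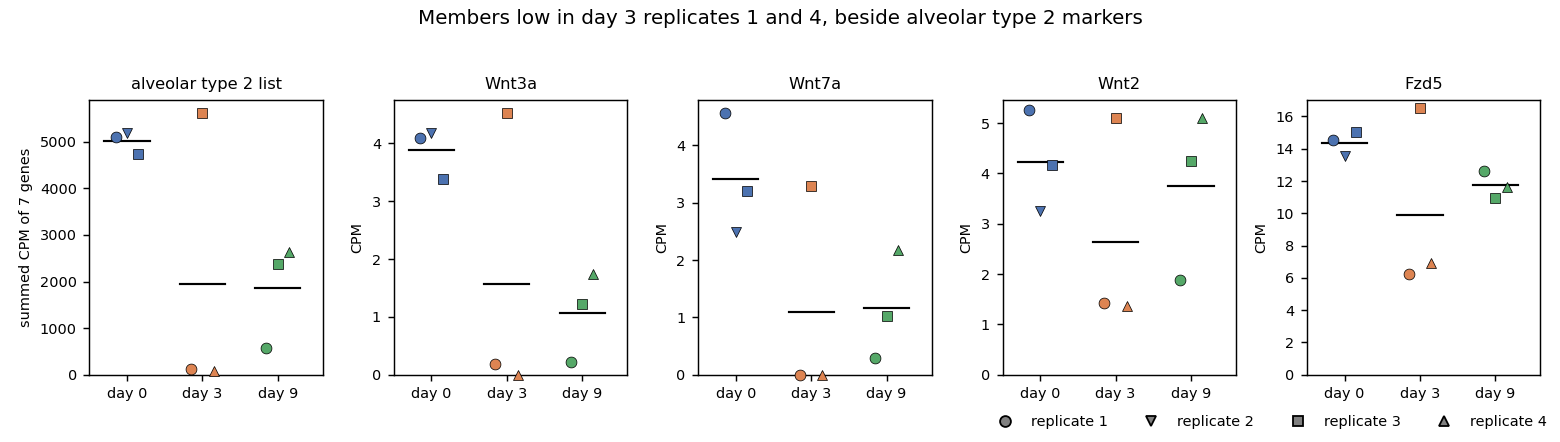
Summed CPM of 7 alveolar type 2 markers (left panel) and CPM of Wnt3a, Wnt7a, Wnt2 and Fzd5, by day (x axis); points are libraries and lines the means. In each panel day 3 replicate 3 lies at or near the day 0 values, and replicates 1 and 4 far below.

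Several Wnt genes lie next to each other in the mouse genome. In RefSeq, Wnt3a adjoins Wnt9a on chromosome 11, with mean levels at days 0, 3 and 9 of 1.41, 0.569 and 0.386 CPM per kb of exon for Wnt3a and 4.08, 3.07 and 5.58 CPM per kb for Wnt9a. Wnt10b adjoins Wnt1 on chromosome 15, and Wnt10b had mean levels of 3.07, 0.836 and 1.74 CPM per kb, while Wnt1 did not exceed 0.31 CPM in any library. The members of the other pairs, Wnt6 and Wnt10a on chromosome 1 and Wnt3 and Wnt9b on chromosome 11, were all low, at or below 1.87 CPM in every library.

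Other genes of the pathway, 47 in all of which 44 were tested, gave counts of the same order. At day 3 against day 0, 1 was higher and 5 lower by edgeR, where 12.9% of all genes passed as higher and 3.29% as lower. At day 9 against day 0, 5 were higher and 2 lower, where 15.2% and 5.54% of all genes passed. At day 9 against day 3, 6 were higher and 0 lower, where 5.19% and 3.66% of all genes passed. In the list of 11 co-receptors and receptors, Ror2, the receptor kinase for Wnt5a, rose most clearly. Ror2 stood at 3.86, 5.37 and 2.98 CPM on day 0, 6.79, 4.76 and 4.72 on day 3, and 15.6, 18.2 and 19.9 on day 9. Day 9 lay far above the other days, which overlapped, and was 4.41-fold above day 0 (edgeR adjusted p = 0.000754, log2 fold change 2.14) and 3.31-fold above day 3 (adjusted p = 0.00781). Wls, which carries Wnt proteins to the cell surface, fell 1.502-fold by day 3 (adjusted p = 0.0478) and at day 9 was 2.05-fold above day 3 (adjusted p = 0.0118). Its values were 89.3, 80.3 and 82.3 CPM on day 0, 45.4, 71.6 and 50.7 on day 3, and 102, 122 and 119 on day 9, so no day overlapped with another; the fall did not pass without any one of 8 of the 9 libraries (adjusted p from 0.0555 to 0.145), the exception being day 3 replicate 3.

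In the list of 12 feedback and target genes, Ccn4 (formerly Wisp1), a matrix protein, was higher at day 9, Znrf3, a ligase that removes Frizzled receptors, was lower at day 9, and Tcf7, a TCF factor, was lower at day 3. Ccn4 stood at 21.2, 20.5 and 10.4 CPM on day 0, 20.8, 20.4 and 12.1 on day 3, and 47.3, 61.3 and 50.01 on day 9, a 3.04-fold rise over day 0 (edgeR adjusted p = 0.00678). Znrf3 was 1.93-fold lower at day 9 than at day 0 (adjusted p = 0.0132), and Tcf7 3.11-fold lower at day 3 (adjusted p = 0.0234). The median log2 fold change over the 12 genes was -0.67 at day 3 and -0.65 at day 9, both against day 0. At day 3 the values ran from -1.66 for Nkd1 to 0.03 for Ccn4. In day 3 replicates 1, 3 and 4, Nkd1 held 4.42, 46.5 and 3.498 CPM and Rnf43 0.747, 4.52 and 0.304. Lef1 held 0.996, 4.05 and 0.76 CPM. Of the 12, all but Axin2, Apcdd1, Ccn4 and Ccn5 were highest in replicate 3 among the day 3 libraries. The part of lung epithelium in these medians was not tested. At day 3, 0 of the 12 passed as higher and 1 as lower, where 12.9% and 3.29% of all genes did. At day 9, 1 of the 12 passed as higher and 1 as lower, where 15.2% and 5.54% of all genes did. Axin2, the target most often used as a readout of β-catenin signalling and named here after its values were seen, did not pass. It is 1 gene of the list and does not stand for the others. Axin2 stood at 17.1, 17.2 and 17.4 CPM on day 0, 10.5, 15.6 and 17.9 on day 3, and 16.0, 17.2 and 16.7 on day 9 (adjusted p = 0.505 over any day), so the days overlapped. β-catenin itself (Ctnnb1) had 357 to 491 CPM in all 9 libraries (adjusted p = 0.816).

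Among 9 other secreted inhibitors, Sost fell by day 3 to 0.37, 0.18 and 0.15 CPM from 1.29, 2.93 and 1.63 (edgeR adjusted p = 0.0185). At day 9 Sost stood at 3.77, 1.79 and 1.02 CPM, 9.00-fold above day 3 (adjusted p = 0.0236). Igfbp4 rose 1.72-fold by day 9 over day 0 (adjusted p = 0.0487). Of the receptors, Lgr6 was 3.61-fold lower at day 3 (adjusted p = 0.0299), Lgr5 5.09-fold higher at day 9 than at day 3 (adjusted p = 0.041), and Lrp5 1.40-fold lower at day 9 than at day 0 (adjusted p = 0.0267). The differences of Znrf3, Tcf7, Sost, Igfbp4, Lgr5, Lgr6 and Lrp5 each lost their pass when at least 1 single library was left out, with adjusted p up to 0.167. In the list of 13 intracellular components, Tcf7l1 (lower at day 3, adjusted p = 0.0312), Dvl2 (higher at day 9, 0.0143) and Pygo2 (higher at days 3 and 9, 0.0393 and 0.0243) passed, with log2 fold changes of -0.48, 0.61, 0.46 and 0.50 in that order. Tcf7l1 was also higher at day 9 than at day 3 (log2 fold change 0.56, edgeR adjusted p = 0.0278). These differences of Tcf7l1, Dvl2 and Pygo2 also lost their pass when single libraries were left out. Without day 0 replicate 2, for example, the adjusted p was 0.0919 for the fall of Tcf7l1 and 0.0581 for its rise over day 3. It was then 0.0629 for Dvl2, and 0.094 and 0.0624 for Pygo2 at days 3 and 9.

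**Figure D5:**
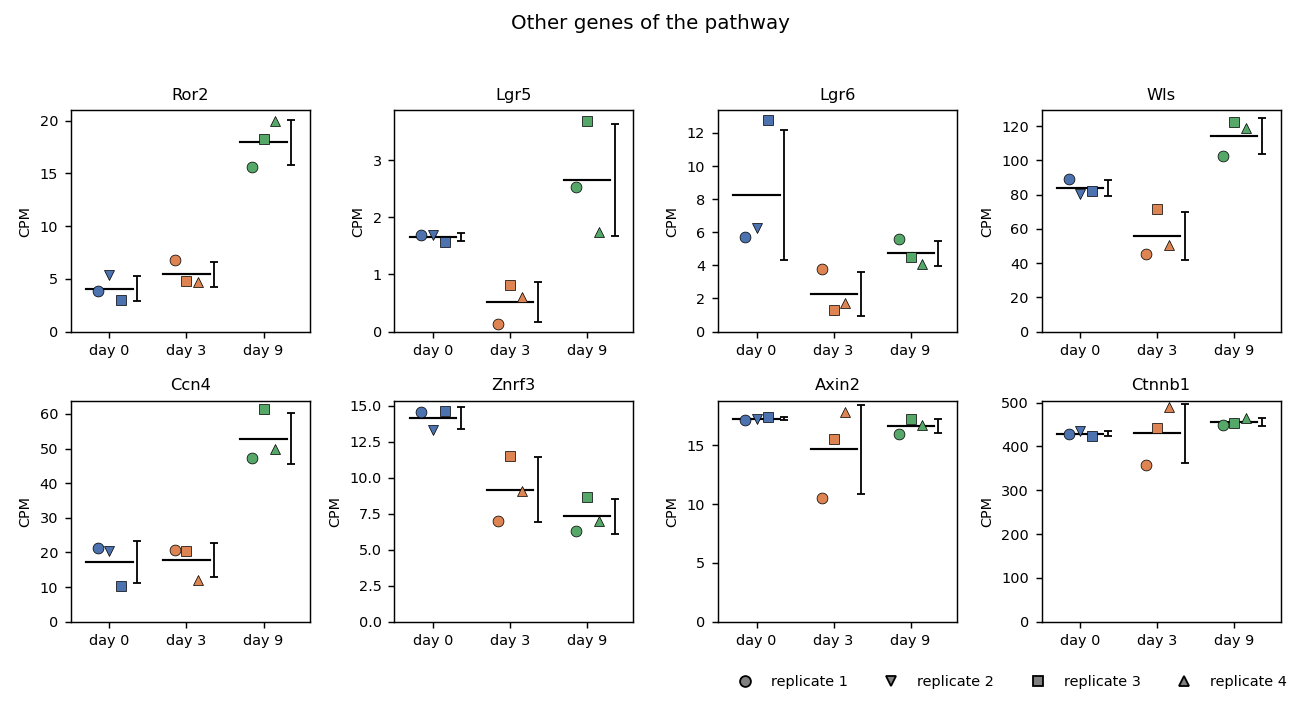
CPM (y axis, linear from 0) of 8 other pathway genes by day (x axis); points are libraries, lines the means and bars the SD of 3 libraries. Ror2 and Ccn4 lie highest at day 9, Wls dips at day 3, and Axin2 and Ctnnb1 overlap between days.

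The authors' deposited table holds its own fold changes and FDR values for 37 of the members. By an FDR below 0.05 it has 1 member higher (Sfrp1) and 4 lower (Wnt5a, Wnt16, Wnt10b and Dkk3) at day 3 against day 0, 7 higher and 1 lower at day 9 against day 0, and 9 higher and 0 lower at day 9 against day 3. Over all genes with an FDR in that table the shares were 7.13% higher and 3.29% lower, 9.21% and 4.38%, and 3.72% and 2.65%, for the same comparisons. Of the authors' 7 and 9 higher members, 5 and 5 passed here too, and those are all that passed here; at day 3, 2 of the authors' 4 lower members passed here, which is 2 of 3.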

How the data were processed

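Poly(A)-selected RNA of 9 tissue samples was sequenced. The authors deposited 1 table of 25652 genes, 7737 of them with no read, and per the file headers it holds read counts, RPKM, TPM, and the authors' log2 fold changes and FDR-adjusted p-values between days. The deposited RPKM and TPM columns were equal to each other and to counts per 1000000 reads of the library, so neither is corrected for length; they were not used further. No aligner, counting program or library strand is named in the sources used here; overlapping antisense genes may therefore share reads. Builds GRCm38 and mm10 are named in the submitters' processing notes. Starts in the table matched those of GENCODE M21 for only 567 of 25597 shared gene identifiers, and start and end positions from the table were not used. The chromosomes given after gene names came from the authors' table. Exon lengths for levels per kb came from GENCODE M21, and promoters from RefSeq GRCm38.p6. Emptied lines, 3 in number, were not used.

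Library totals were 12769059 to 18701063 counts. Same-day libraries differed by more than sampling noise (chi-square per degree of freedom 8.35 to 147), so each counted once. Whether replicates are separate mice is not stated in the labels; p-values may then measure only technical spread. Floors cover counting error only.

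Counts of the 14794 genes kept by filterByExpr were fitted with edgeR 4.0.16 (R 4.3.3) using TMM factors, 1 mean per day and all 9 libraries, with 6 residual degrees of freedom. The quasi-likelihood F test was two-sided, and adjusted p is Benjamini-Hochberg over all tested genes. The SE of a log2 fold change was derived from its F value, and SD is over 3 libraries. The script was tested on simulated data. Full values are given for Wnt5a and each member with adjusted p under 0.05 in a day comparison, and for at most 4 passing genes per pathway list; other members named were chosen after their values were seen. Alternatives were limma-voom 3.58.1, DESeq2 1.42.0, median-ratio factors, no filter, a replicate block, covariates of alveolar type 2 or cartilage and bone markers, the 6 libraries of both days, and each library left out; tests of the other pathway genes under these alternatives and the background without day 3 replicate 3 were added after seeing the data. Members and lists were chosen with earlier results of these data known.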

Additional observations from a re-analysis of the deposited data

How the results depend on the processing

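Of 963 recomputed values, 667 of single genes kept their direction and side of the threshold, and 52 counts stayed within 1.5 times. The 667 include differences that passed in neither analysis. Of the other single-gene values, 165 lost a pass, 40 gained one and 12 reversed direction, and 27 counts moved further than 1.5 times. The members passing at day 3 against day 0 numbered 3 in the main analysis, 0 with the replicate block, 5 with limma-voom, 7 with DESeq2 and 1 to 12 with a library left out. At day 9 against day 0 the 6 became 2 with the block, 10 with the alveolar type 2 covariate, 13 with the 6 libraries of both days and 4 to 10 with a library left out. At day 9 against day 3 the 5 became 1 with the block, 8 with that covariate, 2 with the 6 libraries, 8 with limma-voom, 11 with DESeq2 and 2 to 16 with a library left out. Over any day the 10 became 2 with the block and 5 to 17 with a library left out, and the 30 expressed members were 30 without each library. Whether the replicate numbers pair the samples is not stated in the labels. Deviations of same-numbered libraries correlated at -0.07 and -0.09 between days 0 and 3 and at -0.15 and -0.03 between days 0 and 9. Between days 3 and 9 they correlated at 0.47, 0.32 and -0.25, and not every library correlated best with its own number. With 3 libraries per day, deviations from the day mean depend on each other, so these correlations cannot decide whether same-numbered libraries shared a batch. Direction reversed for 3 differences at day 3 that had not passed. Fzd2 (0.02) became -0.039 with median-ratio factors, -0.018 with the block, -0.14 with the alveolar type 2 covariate, -0.046 with the 6 libraries, -0.040 with DESeq2 and -0.11 to 0.11 with a library left out. Fzd1 became 0.29 with that covariate and -0.62 to 0.028 with a library left out, and Sfrp4 -0.14 to 1.16. The cause was not tested. Members with under 1 CPM rest on few reads.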
